A study of Homo sapiens with 16 samples.

Results

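The genes described here encode the serine proteases and myeloperoxidase of the azurophil granule (MPO, ELANE, AZU1, PRTN3 and CTSG) and effector proteins of monocytes and neutrophils (LYZ, S100A8, S100A9, S100A12 and CD14). The first 5 are called granule proteases here, although MPO encodes a peroxidase and the AZU1 product has no protease activity. H3K27ac, the acetylation of histone H3 that marks promoters and enhancers in use, was measured by ChIP-seq in THP-1 cells, a human monocytic leukemia line. Members were all windows of the deposited table that carried 1 of these 10 gene names and lay at most 50000 bp from the annotated transcription start. This rule gave 41 of 151654 windows, of which CD14 held 8, LYZ 7, S100A8 5, MPO 4, CTSG 4, PRTN3 3, S100A12 3, S100A9 3, AZU1 2 and ELANE 2. All 41 windows and all 10 genes passed the minimum of 10 counts in 2 or more libraries and were tested. In 32 of the 41 windows every library reached 10 counts, and the fewest libraries to do so in any member window was 3.

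The study asked how loss of USP18, a protease that removes ISG15 and restrains type I IFN signaling, changes chromatin at regulatory elements with and without IFN. The 4 groups compared had 2 libraries each. WT cells carried Cas9 without disruption of USP18 (a control sgRNA by the labels), and USP18-/- cells were CRISPR edited, sorted as single cells and expanded. Each genotype was left untreated or exposed to IFNα at 1000 U/ml for 6 h. Because the USP18-/- line grew from single cells, loss of USP18 and features of the line cannot be told apart. The study states 2 biological replicates, but the labels do not say whether the 2 libraries of a group came from separate cultures, so p-values measure only the spread between these libraries, which may be technical.

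Granule proteases are made early in myeloid differentiation, at the promyelocyte stage, and are stored in azurophil granules that neutrophils and, to a lesser degree, monocytes carry. Their genes are kept active by the myeloid factors PU.1 and C/EBP and are shut as cells mature, whereas LYZ, the S100 alarmins and CD14 stay on or rise in mature monocytes. AZU1, PRTN3 and ELANE are neighbours on chromosome 19, the S100A genes form a cluster on chromosome 1, and MPO, CTSG, LYZ and CD14 lie on chromosomes 17, 14, 12 and 5.

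RefSeq promoter sequence (GRCh38.p14) was matched for 7 of the 10 genes. The 200 bases before the start are shown for 3 granule proteases, for S100A9, whose promoter window lost H3K27ac without IFN, and for CD14, the only member gene that gained it. Each stretch lies inside the window nearest that start. Lower case is used except for exact matches to the PU.1 core GAGGAAGT or the C/EBP motif TTGCNNAA, read on both strands, which are in capitals (N is any base).
PRTN3: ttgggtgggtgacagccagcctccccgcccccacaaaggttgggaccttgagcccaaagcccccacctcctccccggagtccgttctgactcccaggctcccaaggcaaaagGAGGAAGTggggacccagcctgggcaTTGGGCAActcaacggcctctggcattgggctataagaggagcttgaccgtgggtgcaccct
AZU1: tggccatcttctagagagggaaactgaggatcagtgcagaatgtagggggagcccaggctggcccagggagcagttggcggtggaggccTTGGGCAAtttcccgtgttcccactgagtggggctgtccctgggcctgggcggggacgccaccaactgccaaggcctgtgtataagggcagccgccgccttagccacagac
CTSG: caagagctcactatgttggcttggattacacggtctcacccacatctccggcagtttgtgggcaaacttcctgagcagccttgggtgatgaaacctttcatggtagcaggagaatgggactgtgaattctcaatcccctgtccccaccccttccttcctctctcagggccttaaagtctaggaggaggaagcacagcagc
S100A9: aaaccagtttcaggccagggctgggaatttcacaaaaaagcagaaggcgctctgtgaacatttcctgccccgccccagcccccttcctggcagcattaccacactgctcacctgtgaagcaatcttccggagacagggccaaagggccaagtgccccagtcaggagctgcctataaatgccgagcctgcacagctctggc
CD14: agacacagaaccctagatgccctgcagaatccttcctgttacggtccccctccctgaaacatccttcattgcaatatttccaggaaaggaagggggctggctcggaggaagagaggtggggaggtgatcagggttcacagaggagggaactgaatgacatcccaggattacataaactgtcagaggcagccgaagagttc
These are, 5′ to 3′, chr19:840799-840998 on the plus strand (PRTN3), chr19:827637-827836 on the plus strand (AZU1), chr14:24576251-24576450 on the minus strand (CTSG), chr1:153357654-153357853 on the plus strand (S100A9) and chr5:140633176-140633375 on the minus strand (CD14). In PRTN3 the PU.1 match GAGGAAGT began 88 bases and the C/EBP match TTGGGCAA 62 bases before the start, and AZU1 held the same C/EBP letters 111 bases before its start. The stretches of CTSG, S100A9 and CD14 had no exact match, and no match to the ISRE core (GAAA, any 2 bases, GAAA) was found in any of the 5. Over 35116 RefSeq promoters of 300 bases, 2.59% held the PU.1 core, 10.5% the C/EBP motif and 3.57% the ISRE core.

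The 8 libraries held 9046141 to 12935453.5 tags in all windows. Counts in member windows ranged from 4 to 1112. Levels are given as CPM, the count scaled to the library size after TMM adjustment, and log2 fold changes, standard errors (SE) and adjusted p come from the quasi-likelihood test of edgeR, with adjustment by Benjamini-Hochberg across all windows or all genes. A window or gene was called when its adjusted p was under 0.05 and its fold change over 2. Gene-level values are tags summed over all windows of a gene within the same 50000 bp. Of the member windows, 12 overlapped another window, so a tag could be counted more than once. The window at the USP18 start gave 7.62 to 7.85 CPM in untreated WT, 15.0 to 18.0 in IFN treated WT, 8.20 to 8.47 in untreated USP18-/- and 41.7 to 49.2 in IFN treated USP18-/- cells, which reads the promoter and not the edited sequence. Of 8 myeloid markers all had windows, and the 5 that are not members summed to 1349 to 1373 CPM in untreated WT, 1385 to 1428 in IFN treated WT, 1377 to 1444 in untreated USP18-/- and 1314 to 1354 in IFN treated USP18-/- cells. The start windows of the myeloid factors SPI1 and CEBPA averaged 92.0 and 38.9 CPM over the 8 libraries. Within that sum SPI1 went from 239 to 401 CPM and CEBPA from 841 to 682 between untreated WT and IFN treated USP18-/- cells, and without IFN CSF1R was at 159 in WT and 107 in USP18-/- cells and ITGAM at 109 and 72.7. With IFN CSF1R was at 185 in WT and 166 in USP18-/- cells and ITGAM at 102 and 72.7. Erythroid (2 of 5 genes with windows) and fibroblast and epithelial (2 of 4) marker lists summed to 5.18 to 8.03 and 7.51 to 11.8 CPM. The B cell list (4 of 4) summed to 35.2 to 36.1, 38.1 to 38.4, 35.5 to 39.4 and 56.5 to 59.1 CPM in untreated WT, IFN treated WT, untreated USP18-/- and IFN treated USP18-/- cells, with PAX5 called higher in USP18-/- cells under IFN (1.17, SE 0.14, adjusted p = 7.2e-09). The T cell list (3 of 4) summed to 79.3 to 94.3, 74.5 to 83.3, 175 to 176 and 109 to 112 CPM in the same order of groups. LCK was higher in USP18-/- cells, by 1.58 untreated and 1.13 under IFN, while CD2 was lower, by -0.54 and -0.67. CD3E differed by 0.11 untreated (adjusted p = 0.59) and by -0.80 under IFN (adjusted p = 8.8e-05). The part of both lists in the results below was not tested.

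Set per window, the granule proteases carried the most H3K27ac in untreated WT cells. The order depends on this choice. Summed over windows, LYZ (107 CPM) stood above CTSG (95.0), and CD14 (53.5) above S100A8 (34.8) and S100A9 (25.3). AZU1 averaged 109 ± 4.4 CPM per window (SD, n = 2), PRTN3 68.3 ± 1.0, ELANE 59.7 ± 1.2, MPO 56.2 ± 3.0 and CTSG 23.8 ± 1.2. LYZ, the bacteriolytic enzyme lysozyme, followed at 15.2 ± 0.55 CPM per window, then S100A9 at 8.44 ± 0.011, S100A8 at 6.96 ± 0.021, CD14 at 6.68 ± 0.26 and S100A12 at 3.14 ± 0.55. In this order per window no gene's 2 libraries overlapped those of the next. ELANE and MPO lay 58.8 against 58.4 CPM per window at their nearest, and S100A8 and CD14 lay 6.94 against 6.87. In IFN treated USP18-/- cells CD14, at 16.2 ± 0.051 CPM per window, stood above MPO at 14.6 ± 0.12 and below ELANE at 21.5 ± 0.75, and the libraries of PRTN3 and ELANE overlapped.

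**Figure D1:**
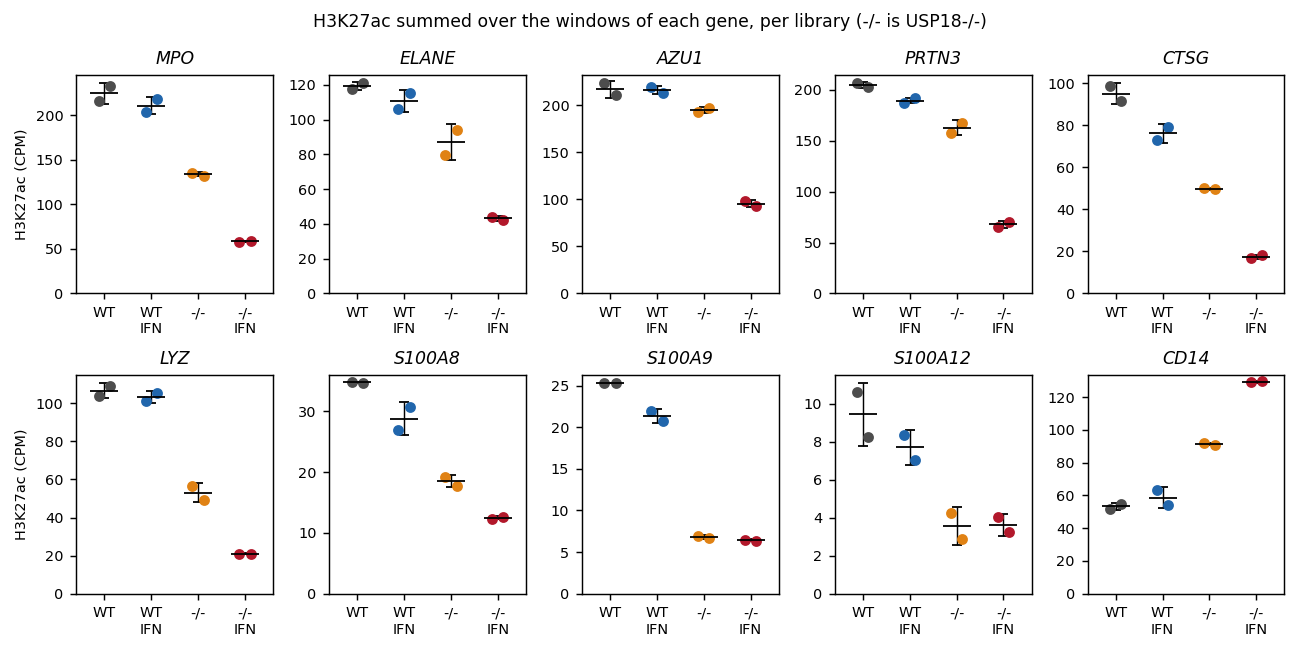
H3K27ac in CPM (vertical axis, from 0, a separate scale for each gene) summed over the windows of each of the 10 genes in the 4 groups (horizontal axis), with 1 point per library and the mean and SD as bars. The 5 granule protease genes and LYZ are lowest in IFN treated USP18-/- cells, S100A9 and S100A12 are low in both USP18-/- groups, and CD14 is highest with both.

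IFN left these genes close to their untreated level in WT cells. None of the 10 genes and none of the 41 windows was called, against 0.288% of 22219 genes and 0.382% of 123276 windows called in either direction. At an unadjusted p under 0.05 there were 2 genes (CTSG and S100A8) and 6 windows, and DESeq2 called 0 of each. Gene-level log2 fold changes ran from -0.32 for CTSG (SE 0.089, adjusted p = 0.055) to 0.14 for CD14 (SE 0.092, adjusted p = 0.62). The median over the 41 windows was -0.09, beside -0.01 over all windows tested.

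Without IFN, USP18-/- cells carried less H3K27ac at most members, with gene-level log2 fold changes from -0.93 to -0.15 at the granule proteases and from -1.89 to -0.91 at the effector genes other than CD14. At gene level LYZ, S100A9 and S100A12 were called lower, which is 3 of 10 genes where 7.53% of all genes were, and none was called higher where 2.77% of all genes were. With the fold threshold left aside, 9 genes were lower and CD14 was higher at an adjusted p under 0.05. At that cut 5221 of all 22219 genes were lower and 5054 higher. Of the windows 15 were called lower and 2 higher, beside 10.8% and 5.66% of all windows. With library sizes scaled by the plain sum of counts 17 were lower and 0 higher, where 16918 and 4957 of all 123276 windows were. The 15 windows of granule proteases held 4 of the falls, and the 26 windows of effector genes held 11 falls and both rises, which lay at CD14. The median over the 41 windows was -0.61, beside -0.02 over all windows. In bulk cells, fewer cells carrying the mark and less of it per cell cannot be told apart.

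Under IFN the loss passed the fold threshold at every granule protease gene. Compared with IFN treated WT cells, 9 of the 10 genes were called lower and CD14 was called higher, where 9.5% and 6.84% of all genes were. Of the windows 24 fell and 4 rose, beside 13.4% and 11.3% of all windows, with a median of -1.18 beside 0.00 over all windows. Granule proteases accounted for 13 falls among their 15 windows, with a median of -1.63, and effector genes for 11 falls and 4 rises among 26. With the TMM factors of the windows in place of those of the genes, which put the median of all genes at 0.20, 6 genes stayed called lower and CD14 higher. There 1423 of all 22219 genes were called lower and 2421 higher.

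**Figure D2:**
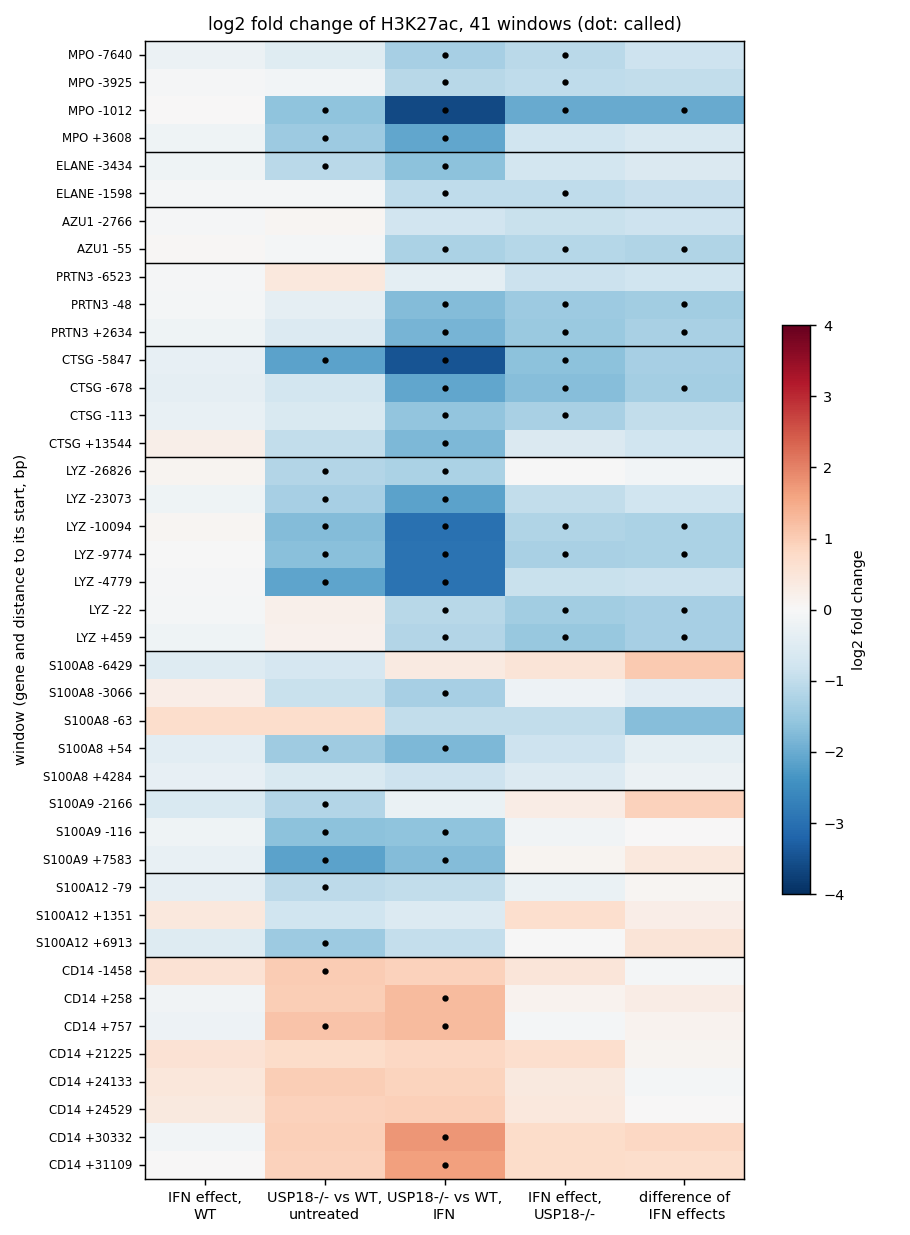
Heat map of the log2 fold change of H3K27ac (colour scale, -4 to 4) in the 41 member windows (rows, named by gene and distance to the start in bp) for the 4 comparisons and the difference of the IFN effects (columns), with a dot where a window was called. The column for IFN in WT cells holds no dot, and the column for USP18-/- against WT under IFN holds 28.

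Within USP18-/- cells, IFN lowered the granule proteases and LYZ, and none of the other effector genes passed both thresholds. MPO, ELANE, AZU1, PRTN3, CTSG and LYZ were called lower, 6 of 10 genes where 1.87% of all genes were, and 14 of 41 windows fell where 4.28% of all windows did. No member gene or window was called higher, where 1107 of 22219 genes and 8797 of 123276 windows were. Of the 14 windows 10 lay at granule proteases and 4 at LYZ. The IFN effect in USP18-/- cells differed from that in WT cells at 5 genes (MPO, AZU1, PRTN3, CTSG and LYZ) and 9 windows, all lower. Of all genes 1.3% and of all windows 2.51% were called lower in this way. More were called higher, at 830 of 22219 genes and 5743 of 123276 windows. ELANE had a difference of -0.90 (SE 0.12, adjusted p = 7.3e-07) that was under the fold threshold. CD14, whose own IFN effect in USP18-/- cells was 0.50 (SE 0.079, adjusted p = 3.4e-06, under the fold threshold), differed the other way, by 0.37 (SE 0.12, adjusted p = 0.027), also under that threshold.

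**Figure D3:**
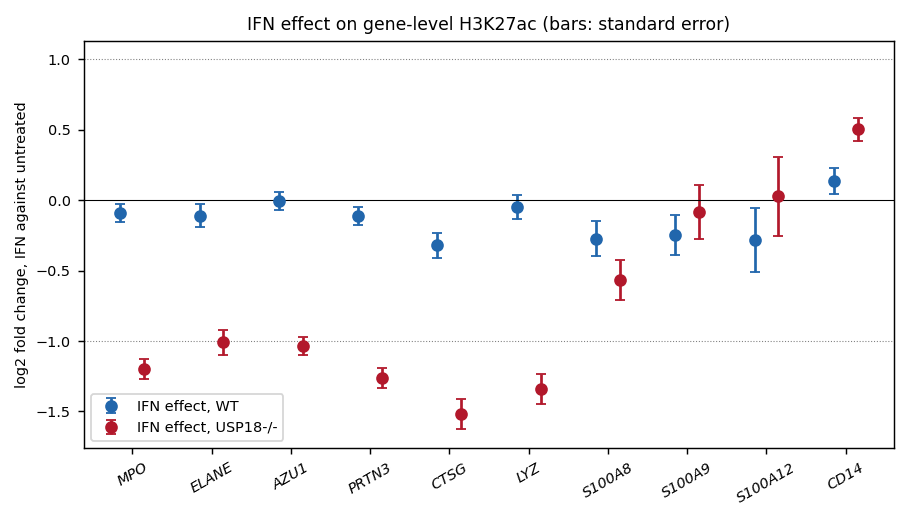
Log2 fold change of gene-level H3K27ac with IFN against untreated (vertical axis) in WT cells and in USP18-/- cells for the 10 genes (horizontal axis), with SE as bars and dotted lines at a 2-fold change. In WT cells all values lie between -0.32 and 0.14, and in USP18-/- cells the 5 granule protease genes and LYZ lie between -1.52 and -1.01.

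MPO encodes myeloperoxidase, which makes hypochlorous acid from hydrogen peroxide in the phagosome. Its 4 windows summed to 216 and 233 CPM in untreated WT, 204 and 218 in IFN treated WT, 136 and 132 in untreated USP18-/- and 58.1 and 58.8 in IFN treated USP18-/- cells. The WT groups overlapped each other, and both USP18-/- groups lay below them without overlap. Gene-level H3K27ac was lower by a log2 fold change of -0.75 in untreated USP18-/- cells (SE 0.066, adjusted p = 2.5e-11, under the fold threshold) and of -1.85 under IFN (SE 0.072, adjusted p = 8.4e-21). The IFN effect was -1.20 in USP18-/- cells (SE 0.072, adjusted p = 1.7e-15) against -0.09 in WT cells (SE 0.065, adjusted p = 0.64), a difference of -1.10 (SE 0.097, adjusted p = 1.2e-10).

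The windows of MPO did not fall equally. The intergenic window at -1012 from the start, chr17:58281447-58282447, gave 48.9 and 56.7 CPM in untreated WT, 51.4 and 55.2 in IFN treated WT, 16.4 and 18.4 in untreated USP18-/- and 4.79 and 3.85 in IFN treated USP18-/- cells. It stood 3.04-fold lower in untreated USP18-/- cells and 12.3-fold lower under IFN, at log2 fold changes of -1.61 (SE 0.12, adjusted p = 1.8e-20) and -3.62 (SE 0.15, adjusted p = 1.4e-36). The difference between its IFN effects, -2.01 (SE 0.20, adjusted p = 2.8e-13), was the widest of the 9 that were called. By contrast the window at -3925, the one with the most H3K27ac at this gene, gave 67.1 and 72.2, 65.4 and 69.6, 63.0 and 65.7, and 29.9 and 33.1 CPM in the same order of groups. Its 2 untreated groups differed by -0.11 (SE 0.094, adjusted p = 0.38), and it was called only once IFN was added, at -1.10 (SE 0.10, adjusted p = 1.8e-16). Of all MPO tags the window at -1012 held 29.1% ± 1.7 in untreated WT, 31.2% ± 0.55 in IFN treated WT, 14.3% ± 1.3 in untreated USP18-/- and 7.87% ± 1.2 in USP18-/- cells with IFN (SD, n = 2). The window at +3608 in intron 7 was lower in both comparisons of genotype, at -1.46 (SE 0.25, adjusted p = 1.1e-06) and -2.09 (SE 0.29, adjusted p = 1.6e-09), and the window at -7640 was called under IFN, at -1.32 (SE 0.12, adjusted p = 1.1e-16).

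The 3 granule protease genes on chromosome 19 lie side by side, and their 7 windows spanned 824560 to 851111. AZU1 encodes azurocidin, an antibacterial protease homolog without protease activity that attracts monocytes. Its windows summed to 224 and 211 CPM in untreated WT, 219 and 214 in IFN treated WT, 193 and 197 in untreated USP18-/- and 97.8 and 92.6 in IFN treated USP18-/- cells. The untreated groups lay close together, at -0.15 (SE 0.062, adjusted p = 0.042), a direction that turned to 0.02 with the TMM factors of the windows. IFN treated USP18-/- cells stood apart from all others, at -1.18 against IFN treated WT cells (SE 0.065, adjusted p = 8.0e-17). The difference of its IFN effects, -1.03 (SE 0.090, adjusted p = 9.6e-11), was no longer called without untreated WT replicate 2, at -0.99, or with the TMM factors of the windows, at -0.99. The window at the AZU1 start (-55, chr19:827271-828271) carried this, at -1.26 (SE 0.096, adjusted p = 2.6e-20), and the window at -2766, with the most H3K27ac of all members in WT cells (97.9 and 92.5 CPM untreated), was lower by -0.76 (SE 0.091, adjusted p = 1.5e-11), under the fold threshold.

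PRTN3 encodes proteinase 3, the main autoantigen of granulomatosis with polyangiitis. Its 3 windows summed to 207 and 203 CPM in untreated WT, 188 and 192 in IFN treated WT, 158 and 168 in untreated USP18-/- and 65.3 and 70.3 in IFN treated USP18-/- cells. The libraries of the 4 groups did not overlap, although the IFN effect in WT cells was -0.11 (SE 0.065, adjusted p = 0.52). The step to IFN treated USP18-/- cells was the widest. The log2 fold change was -0.33 in untreated USP18-/- cells (SE 0.065, adjusted p = 7.2e-05, under the fold threshold) and -1.48 under IFN (SE 0.070, adjusted p = 1.6e-18). At its start, in the window at -48 (chr19:840437-841437) that holds the promoter stretch printed above, libraries gave 77.3 and 75.3, 70.5 and 72.9, 60.3 and 59.8, and 23 and 20.4 CPM. The IFN effect there was -1.47 in USP18-/- cells (SE 0.10, adjusted p = 9.1e-22) and differed from that in WT cells by -1.38 (SE 0.14, adjusted p = 5.1e-13). The upstream window at -6523 went the other way in untreated USP18-/- cells, with 50.4 and 59.4 CPM against 40.1 and 42.4 in WT cells, a log2 fold change of 0.41 (SE 0.11, adjusted p = 0.0013, under the fold threshold), and under IFN it was lower by -0.40 (SE 0.11, adjusted p = 0.0027). The window at +2634, in exon 2, was called under IFN at -1.84 (SE 0.13, adjusted p = 9.8e-23), and its IFN effects differed by -1.30.

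ELANE encodes neutrophil elastase, the protease mutated in most severe congenital neutropenia. Its windows summed to 118 and 121 CPM in untreated WT, 106 and 115 in IFN treated WT, 79.6 and 94.2 in untreated USP18-/- and 44.1 and 42.0 in IFN treated USP18-/- cells. No USP18-/- library reached the lowest WT library. The log2 fold change was -0.46 in untreated cells (SE 0.083, adjusted p = 2.4e-05, under the fold threshold) and -1.36 under IFN (SE 0.090, adjusted p = 8.6e-15). Its IFN effect in USP18-/- cells, -1.01 (SE 0.090, adjusted p = 2.8e-11), sat at the fold threshold and was no longer called without replicate 2 of either USP18-/- group, at -0.99 and -0.90. With the TMM factors of the windows this effect was -0.96 and also not called. The window at -3434 overlies the transcription end of PRTN3 and was called in both comparisons of genotype, at -1.07 (SE 0.15, adjusted p = 6.0e-09) and -1.63 (SE 0.17, adjusted p = 1.8e-14), while the window at -1598 differed by -0.07 in untreated cells (SE 0.094, adjusted p = 0.63) and by -1.0 under IFN (SE 0.10, adjusted p = 9.3e-15).

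CTSG encodes cathepsin G, a granule protease with chymotrypsin-like and trypsin-like activity. Its 4 windows summed to 98.5 and 91.6 CPM in untreated WT, 72.9 and 79.3 in IFN treated WT, 50.2 and 49.4 in untreated USP18-/- and 16.8 and 18.0 in IFN treated USP18-/- cells. The groups formed 4 steps without overlap. The step with IFN in WT cells, -0.32 (SE 0.089, adjusted p = 0.055, not called), was the widest among the 10 genes at that comparison. Log2 fold changes were -0.93 in untreated USP18-/- cells (SE 0.091, adjusted p = 2.7e-10, under the fold threshold, but called at -1.02 with 1 window per chain of overlaps and at -1.01 within 10000 bp) and -2.13 under IFN (SE 0.11, adjusted p = 5.8e-18). IFN lowered it in USP18-/- cells by -1.52 (SE 0.11, adjusted p = 1.2e-13), which differed from WT cells by -1.20 (SE 0.14, adjusted p = 5.0e-08). The windows at -678 and -113 overlap, cover the start and held 88.1% ± 0.031 of CTSG tags in untreated WT cells (SD, n = 2). The first of them (chr14:24576438-24577438) gave 39.0 and 34.7, 28.4 and 29.0, 23 and 21.2, and 6.04 and 7.51 CPM and was lower under IFN by -2.09 (SE 0.15, adjusted p = 1.1e-21). The upstream window at -5847 (chr14:24581607-24582607) was sparser, at 6.09 and 6.72 CPM in untreated WT and 0.533 and 0.376 in IFN treated USP18-/- cells, and was called at -2.13 without IFN (SE 0.30, adjusted p = 5.5e-09) and -3.46 with it (SE 0.39, adjusted p = 2.1e-12). The windows at -113 and +13544 were called under IFN as well, at -1.57 and -1.79.

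**Figure D4:**
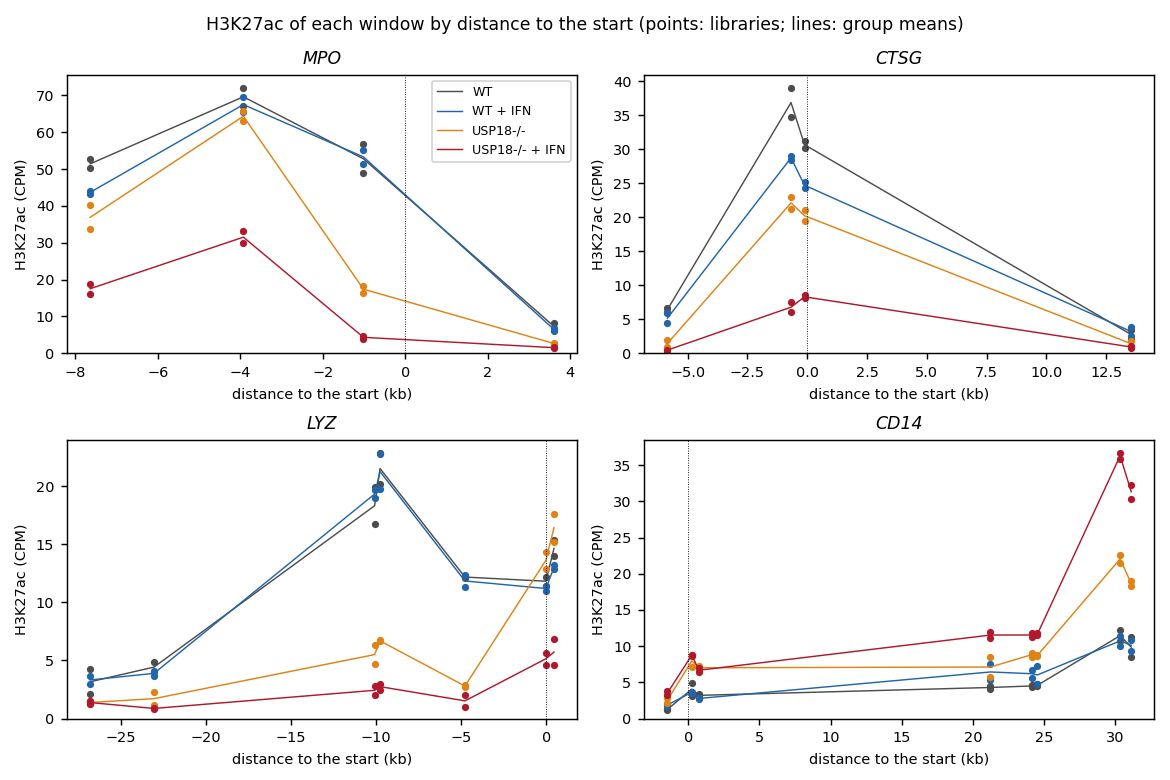
H3K27ac in CPM (vertical axis) of each window by its distance to the start in kb (horizontal axis, dotted line at the start) for MPO, CTSG, LYZ and CD14, with 1 point per library and lines through the group means that join windows and do not show signal between them. At MPO the untreated USP18-/- line meets the WT lines at -3925 and falls away at -1012, and at LYZ it lies with or above them at the start only.

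LYZ encodes lysozyme, which cleaves peptidoglycan and is among the most abundant proteins of monocytes. Its 7 windows summed to 104 and 109 CPM in untreated WT, 101 and 106 in IFN treated WT, 56.5 and 49.4 in untreated USP18-/- and 21.1 and 20.8 in IFN treated USP18-/- cells. IFN treated and untreated WT cells overlapped, and the 2 USP18-/- groups were apart from them and from each other. Among the 10 genes LYZ had the largest fall under IFN, -2.30 (SE 0.099, adjusted p = 1.3e-19). Its fall in untreated USP18-/- cells, -1.01 (SE 0.088, adjusted p = 1.9e-11), lay at the fold threshold and was no longer called without untreated WT replicate 2 (-0.97), untreated USP18-/- replicate 2 (-0.90) or either IFN treated USP18-/- replicate (-0.995 and -0.995). It was also lost when only windows within 10000 bp were summed (-0.86) or libraries were scaled by tag totals (-0.89).

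Within LYZ the start and the upstream windows parted. The overlapping windows at -22 and +459 gave 12.2 and 11.4 CPM and 13.9 and 15.3 CPM in untreated WT, and 14.3 and 12.9 CPM and 17.6 and 15.2 CPM in untreated USP18-/- cells. They differed by 0.21 (SE 0.16, adjusted p = 0.37) and 0.17 (SE 0.16, adjusted p = 0.46), whereas all 5 windows from -26826 to -4779 were called lower. The overlapping pair at -10094 and -9774, with the most H3K27ac at this gene in WT cells, went from 20.1 and 22.9 CPM to 6.72 and 6.64 CPM in the window at -9774 (chr12:69338080-69339080), a log2 fold change of -1.69 (SE 0.17, adjusted p = 1.5e-14). At -4779 the value was -2.12 (SE 0.22, adjusted p = 3.6e-13), and at the far windows -26826 and -23073 it was -1.17 and -1.34. The start windows held 30.8% ± 0.40 of LYZ tags in untreated WT and 62.4% ± 0.045 in untreated USP18-/- cells (SD, n = 2). Under IFN all 7 windows were called lower in USP18-/- cells, with the start windows at -1.12 (SE 0.19, adjusted p = 8.8e-07) and -1.18 (SE 0.19, adjusted p = 9.1e-08) and the 3 from -10094 to -4779 between -2.99 and -2.95. The IFN effect at the start window at -22, -1.40 in USP18-/- cells (SE 0.19, adjusted p = 1.2e-09), differed from that in WT cells by -1.32 (SE 0.25, adjusted p = 4.4e-05).

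S100A8 and S100A9 encode the subunits of calprotectin, and S100A12 encodes another calcium-binding alarmin of the same cluster. S100A9 windows summed to 25.3 and 25.3 CPM in untreated WT, 21.9 and 20.7 in IFN treated WT, 6.96 and 6.67 in untreated USP18-/- and 6.49 and 6.35 in IFN treated USP18-/- cells. Both USP18-/- groups lay far under both WT groups, whether or not IFN was present. The log2 fold change was -1.89 untreated (SE 0.16, adjusted p = 1.1e-11) and -1.73 under IFN (SE 0.17, adjusted p = 7.4e-11), and the difference of the IFN effects was 0.16 (SE 0.24, adjusted p = 0.72). Its promoter window at -116 (chr1:153357238-153358238) was lower by -1.63 (SE 0.20, adjusted p = 8.0e-11) and -1.62 (SE 0.21, adjusted p = 1.6e-10), and the window at +7583 by -2.14 (SE 0.31, adjusted p = 1.6e-08) and -1.74 (SE 0.32, adjusted p = 3.2e-06). The sparse window at -2166 was called only in untreated cells, at -1.17 (SE 0.45, adjusted p = 0.037).

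S100A12 was sparser still, with 10.6 and 8.26 CPM in untreated WT, 8.35 and 7.03 in IFN treated WT, 4.26 and 2.86 in untreated USP18-/- and 4.05 and 3.23 in IFN treated USP18-/- cells. The 2 genotypes were apart and the treatments overlapped within each. It was called lower in USP18-/- cells both untreated, at -1.39 (SE 0.25, adjusted p = 1.8e-05), and under IFN, at -1.08 (SE 0.25, adjusted p = 0.00048), and the second call was lost without IFN treated WT replicate 1 (-0.94) or IFN treated USP18-/- replicate 2 (-0.94). Its windows at -79 and +6913 were called in untreated cells, at -1.05 (SE 0.41, adjusted p = 0.039) and -1.46 (SE 0.32, adjusted p = 0.00015).

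S100A8 windows summed to 34.9 and 34.7 CPM in untreated WT, 26.9 and 30.7 in IFN treated WT, 19.2 and 17.8 in untreated USP18-/- and 12.3 and 12.7 in IFN treated USP18-/- cells. No groups overlapped, although the IFN effect in WT cells was -0.27 (SE 0.13, adjusted p = 0.36). The gene followed the proteases in being lowest in USP18-/- cells with IFN. It differed by -0.91 in untreated cells (SE 0.13, adjusted p = 4.6e-07, under the fold threshold) and by -1.20 under IFN (SE 0.14, adjusted p = 4.9e-09), while the IFN effect in USP18-/- cells was -0.57 (SE 0.14, adjusted p = 0.0018) and did not pass the fold threshold. The window at its start (+54, chr1:153390634-153391634) was called in both, at -1.41 (SE 0.26, adjusted p = 3.9e-06) and -1.81 (SE 0.30, adjusted p = 3.8e-07), the window at -3066 only under IFN, at -1.32 (SE 0.40, adjusted p = 0.0047), and the window with the most H3K27ac, at +4284, was lower by -0.61 and -0.84, under the fold threshold in both. The other 2 windows sat near an alternative start of the gene, had at most 1.45 CPM in any library and were not called.

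CD14, the lipopolysaccharide co-receptor of monocytes, was the one member that rose. Its 8 windows summed to 52.0 and 55.0 CPM in untreated WT, 63.1 and 54.4 in IFN treated WT, 91.9 and 90.7 in untreated USP18-/- and 129 and 130 in IFN treated USP18-/- cells. WT groups overlapped, and the USP18-/- groups stood above them and apart from each other. The log2 fold change was 0.77 in untreated cells (SE 0.087, adjusted p = 5.3e-09, under the fold threshold) and 1.14 under IFN (SE 0.084, adjusted p = 1.5e-13). All 8 windows were higher at an adjusted p under 0.05 in both comparisons of genotype, and 2 and 4 of them passed the fold threshold. By adjusted p alone 20803 and 26302 of all 123276 windows were higher, untreated and under IFN. At the start, the overlapping windows at +258 and +757 gave 4.96 and 3.18 CPM and 3.41 and 2.99 CPM in untreated WT and 7.16 and 8.76 CPM and 6.81 and 7.22 CPM in untreated USP18-/- cells. IFN did not add to them beyond the spread, with effects in USP18-/- cells of 0.14 (SE 0.20, adjusted p = 0.69) and -0.07 (SE 0.21, adjusted p = 0.87).

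The windows with the most H3K27ac at CD14 lay far from its start and did respond to IFN in USP18-/- cells. At +30332 (chr5:140602618-140603618) libraries gave 10.6 and 12.3 CPM in untreated WT, 11.4 and 10.1 in IFN treated WT, 21.5 and 22.6 in untreated USP18-/- and 35.9 and 36.7 in IFN treated USP18-/- cells. This window and the overlapping one at +31109 were 3.38-fold and 3.09-fold higher in USP18-/- cells under IFN, at 1.76 (SE 0.14, adjusted p = 1.5e-19) and 1.63 (SE 0.15, adjusted p = 1.0e-16). Their IFN effects in USP18-/- cells, 0.72 (SE 0.12, adjusted p = 1.5e-06) and 0.75 (SE 0.13, adjusted p = 3.0e-06), exceeded those in WT cells by 0.82 (SE 0.20, adjusted p = 0.0022) and 0.72 (SE 0.22, adjusted p = 0.016), under the fold threshold. Counting only windows within 10000 bp of the start, CD14 was at 0.91 under IFN and no longer called. The window at -1458 was called in untreated cells, at 1.0 (SE 0.36, adjusted p = 0.025), on the fold threshold.

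Together the 41 windows held 0.0934% ± 0.00057 of all window tags in untreated WT, 0.0883% ± 0.0017 in IFN treated WT, 0.0699% ± 0.00075 in untreated USP18-/- and 0.0374% ± 0.000096 in USP18-/- cells with IFN (SD, n = 2). Most of the drop lay in the 15 granule protease windows, which went from 0.0738% ± 0.00013 to 0.0232% ± 0.000066 between the first and last of these groups, while the 26 effector windows went from 0.0197% ± 0.00044 to 0.0142% ± 0.000030. The effector sum includes the CD14 windows, which went the other way.

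Other windows within 1 Mb of each gene were read for the 2 comparisons of genotype, with medians closer to 0 than those of the members except around AZU1 and PRTN3 without IFN. In untreated USP18-/- against WT cells, the medians of 115 to 258 neighbouring windows per gene ran from -0.27 around S100A8 to 0.41 around ELANE, and the medians of the members' own windows from -1.63 for S100A9 to 0.96 for CD14. Under IFN the neighbours' medians ran from -0.14 around S100A8 to 0.38 around CD14, and the members' own from -2.15 for LYZ to 1.11 for CD14. Around AZU1, PRTN3 and ELANE neighbours were higher, with medians of 0.35 under IFN, while the members there had medians of -1.01, -1.72 and -1.32. CD14 lay in the direction of its neighbours and above them.

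**Figure D5:**
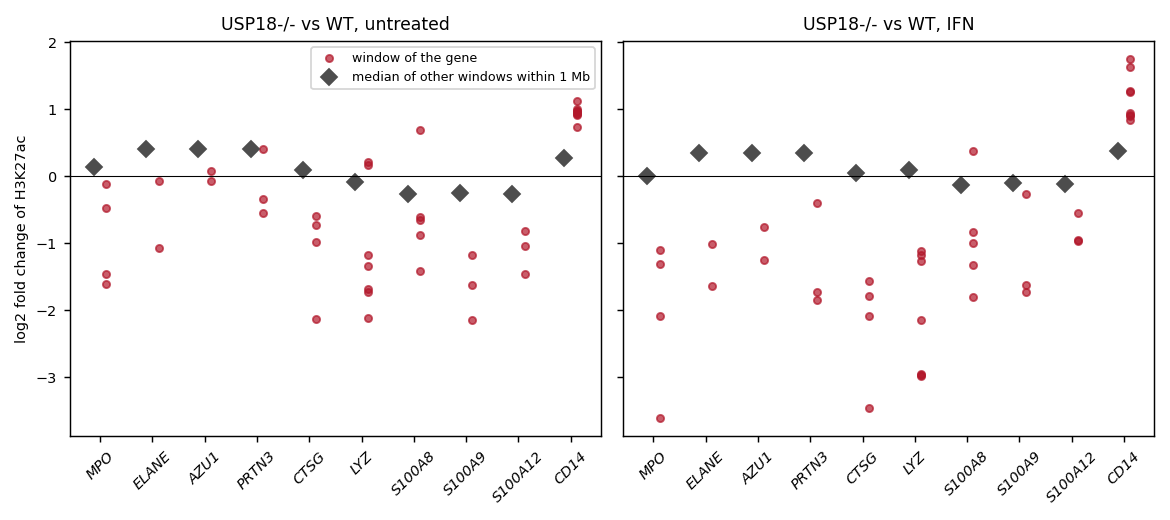
Log2 fold change of H3K27ac in USP18-/- against WT cells (vertical axis), untreated (left) and under IFN (right), for each window of the 10 genes (circles) and as the median of the other tested windows within 1 Mb of the gene (diamonds). Neighbour medians lie between -0.27 and 0.41, and under IFN every window of MPO, ELANE, AZU1, PRTN3, CTSG and LYZ lies below its neighbours' median.

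The same 3 motifs were searched on both strands in the hg38 sequence of all windows. The PU.1 core occurred in 8 of 41 member windows (19.5%) and in 11% of all 151654 windows. It was present in MPO -1012, PRTN3 -48 and LYZ -26826, -23073, -10094 and -9774 (the last 2 overlap), and also in CD14 -1458 and +21225, which were higher in USP18-/- cells. The C/EBP motif occurred in 18 member windows (43.9%) and 43.8% of all windows, and the ISRE core in 2 member windows (4.88%) and 17.2% of all windows. Both ISRE windows, MPO -7640 and S100A9 +7583, were lower in USP18-/- cells under IFN. A match describes letters and not binding.

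Other genes of the same roles were read from lists at gene level. Of 12 further azurophil granule genes 9 had windows. In untreated USP18-/- cells 2 were called lower and 1 higher, and again 2 and 1 under IFN. Of all genes 7.53% were called lower and 2.77% higher untreated, and 9.5% and 6.84% under IFN. With IFN in USP18-/- cells 0 of the 9 were called in the edgeR test, 4 had an unadjusted p under 0.05 and the median was -0.13. There 1.87% of all genes were called lower and 1107 of 22219 higher. BPI, which binds bacterial lipopolysaccharide, had means of 61.9 ± 1.6 CPM in untreated WT and 21.3 ± 1.8 in untreated USP18-/- cells (SD, n = 2), at -1.54 (SE 0.12, adjusted p = 1.1e-12), and RNASE3, the eosinophil cationic protein, 200 ± 10 and 82.6 ± 4.6, at -1.28 (SE 0.071, adjusted p = 2.4e-16). SRGN, the proteoglycan that packs granule proteases, had 406 ± 16 and 627 ± 27 CPM, at 0.63 (SE 0.051, adjusted p = 2.9e-12, under the fold threshold). CST7, an inhibitor of cysteine cathepsins, was higher from a low level, at 1.67 ± 0.20 and 5.25 ± 0.24 CPM and 1.64 (SE 0.33, adjusted p = 9.8e-05). Among 6 tested genes of the later secondary and gelatinase granules 0 were called in untreated cells in the edgeR test. There 3 had an unadjusted p under 0.05. CAMP, the cathelicidin precursor, was the 1 called under IFN, at -1.26 (SE 0.16, adjusted p = 3.0e-08). These counts stand beside the same shares of all genes as above. In untreated cells the smallest adjusted p in that list belonged to CAMP (-0.58, SE 0.15, adjusted p = 0.0013), MMP9 (0.38, SE 0.11, adjusted p = 0.0052) and LTF (-0.79, SE 0.25, adjusted p = 0.0095), all under the fold threshold.

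Of 23 tested monocyte and macrophage effector genes 2 were called lower and 0 higher in untreated USP18-/- cells. The lower share is near the 7.53% of all genes called lower, and 2.77% of all genes were called higher. By adjusted p alone 13 were lower and 6 higher, where 5221 and 5054 of all 22219 genes were. MNDA, an IFN inducible nuclear protein of myeloid cells, had 160 ± 6.7 CPM in untreated WT, 146 ± 1.2 in IFN treated WT, 28.2 ± 2.9 in untreated USP18-/- and 64.8 ± 0.73 in USP18-/- cells with IFN (SD, n = 2), and FCGR1A, the high-affinity IgG receptor, fell from 169 ± 4.8 to 77.6 ± 11 CPM without IFN. Their log2 fold changes were -2.50 (SE 0.087, adjusted p = 1.6e-21) and -1.12 (SE 0.079, adjusted p = 1.1e-13). ITGAX, the integrin CD11c, had 104 ± 5.6 and 178 ± 3.0 CPM, at 0.77 (SE 0.068, adjusted p = 2.9e-11, under the fold threshold). Under IFN MNDA was called lower and FCN1, the lectin ficolin-1, higher, at 1.11 (SE 0.29, adjusted p = 0.0016), where 9.5% and 6.84% of all genes were. FCN1 was at a low level there, 2.82 ± 0.90 CPM in WT and 6.07 ± 1.4 in USP18-/- cells. Unlike the granule proteases, MNDA and the scavenger receptor CD163 rose with IFN in USP18-/- cells, by 1.20 (SE 0.092, adjusted p = 7.0e-13) and 1.64 (SE 0.21, adjusted p = 9.3e-08), and their IFN effects differed from those in WT cells by 1.33 (SE 0.12, adjusted p = 1.6e-10) and 1.44 (SE 0.32, adjusted p = 0.00084). CD163 rose from a low level, 4.66 ± 0.44 CPM untreated to 14.5 ± 0.43 with IFN in USP18-/- cells.

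Across the 8 libraries, the genes with the profile most like the mean of the 5 granule proteases were FAM129C (Pearson r = 0.999), BEGAIN (r = 0.999) and PRKCZ-AS1 (r = 0.999), among 13832 genes with a mean of at least 10 CPM. PRKCZ-AS1 averaged 122 CPM in untreated WT, 106 in IFN treated WT, 80.3 in untreated USP18-/- and 27.4 in IFN treated USP18-/- cells. The mean of the 5 effector genes was most like GYG2 (r = 0.999), SCARNA26B (r = 0.999) and LINC01842 (r = 0.998), and GYG2 averaged 33.5, 29.0, 10.4 and 6.32 CPM in the same order. With 4 groups of 2 libraries these values rest mainly on 4 group means and are given as a description.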

How the data were processed

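H3K27ac ChIP-seq was analysed in 8 THP-1 libraries, in 4 groups of 2 taken from the labels. The authors mapped reads to hg38 with Bowtie2 and counted tags with HOMER in 1000 bp windows at pooled ATAC-seq peaks, and DESeq2 is also named in the submitters' notes, with no versions given. The authors deposited expected counts (fractional tags, not normalized, 52.2% of values whole), which were rounded to whole counts. A tag in overlapping windows (31.8% of windows overlap another) enters each. The value columns that matched no sample numbered 0, and the input libraries were not analysed here.

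Windows, or gene sums of windows within 50000 bp of a start, were kept if 2 or more of the 8 libraries reached 10 counts, TMM scaled, modelled by group means and tested in edgeR 4.0.16 (quasi-likelihood test, Benjamini-Hochberg adjustment over all features, limma 3.58.1, R 4.3.3). Called features had an adjusted p under 0.05 and an absolute log2 fold change over 1. The smallest library held 9082433 rounded counts, and the common biological coefficient of variation was 0.0737 for windows and 0.0554 for genes. The steps were tested on simulated data. Members, lists and motifs were chosen with earlier results of these data known.

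Named were all 10 genes at gene level, and for each the window nearest its start, the one with the highest mean CPM and every window called in any comparison, or the 3 with the smallest adjusted p where a gene had over 3 in a comparison. Of each further list the 3 genes with the smallest adjusted p for USP18 loss in untreated cells were named, with any called. For likeness, log2(CPM + 1) at gene level was centred per gene and correlated over the 8 libraries. Motifs were searched with Python 3.11.15. The labels do not tie same-numbered replicates to each other, and their deviations were correlated at -0.0030 to 0.046, so no replicate block was used. Between the 2 libraries of a group the chi-square per window was 1.34 to 1.74, so none was counted as a repeat.

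Alternatives covered the scaling, DESeq2 1.42.0, the filter, the fold threshold, the groups in the fit, windows within 10000 bp, 1 window per chain of overlaps, a replicate block and the omission of each library in turn. Scaling by tag directory totals and by the TMM factors of the windows was added after seeing the data.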

Additional observations from a re-analysis of the deposited data

Results flagged for a closer look

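The IFN effect in USP18-/- cells differed from that in WT cells, by the contrast of the 2 effects in edgeR's quasi-likelihood test with an adjusted p under 0.05 and over 2-fold, at 5 genes and 9 windows. At gene level the differences on the log2 scale were -1.10 for MPO, -1.03 for AZU1, -1.15 for PRTN3, -1.20 for CTSG and -1.29 for LYZ. Among windows they were -2.01 at MPO -1012, -1.19 at AZU1 -55, -1.38 at PRTN3 -48, -1.30 at PRTN3 +2634, -1.35 at CTSG -678, -1.26 at LYZ -10094, -1.26 at LYZ -9774, -1.32 at LYZ -22 and -1.34 at LYZ +459. All 14 were lower. Over all features, 288 genes were called lower and 830 higher of 22219, and 3093 windows lower and 5743 higher of 123276. Without untreated WT replicate 2 the AZU1 gene-level difference was -0.99 and no longer called, and with the TMM factors of the windows it was also -0.99 and not called. Groups of 2 libraries allow no test for a library that stands apart.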

How the results depend on the processing

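Without the fold threshold the member windows called numbered 31 (22 lower, 9 higher) for untreated USP18 loss, 22 (19 and 3) for IFN in USP18-/- cells and 17 (15 and 2) for the difference of the IFN effects, and 10 genes (9 and 1) were called for untreated USP18 loss. Of all 123276 windows 20769 were then lower and 20803 higher, 13794 and 16053, and 6431 and 8438 in the same order. Of all 22219 genes 5221 were lower and 5054 higher for untreated USP18 loss. The members' share of tags after TMM scaling was 0.0880% in untreated WT, 0.0830% in IFN treated WT, 0.0727% in untreated USP18-/- and 0.0427% in IFN treated USP18-/- cells. With each library left out in turn, called genes numbered 0 to 0 (IFN in WT), 2 to 3 (untreated USP18 loss), 9 to 10 (under IFN), 5 to 6 (IFN in USP18-/-) and 4 to 6 (difference), and windows 0 to 0, 14 to 18, 25 to 31, 12 to 14 and 9 to 12. No other setting moved a count of members called by over 1.5 times.

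Signs turned only for values near 0. The AZU1 effect of IFN in WT cells became 0.0049 with 1 window per chain, 0.0037 with the TMM factors of the windows, 0.0011 with only its groups, 0.0019 by sum of counts, 0.0015 by tag totals and 0.00079 within 10000 bp, and ran from -0.047 to 0.034 without single libraries. The CD14 effect of IFN in WT cells became -0.056 within 10000 bp. For IFN in USP18-/- cells S100A12 became -0.061 by sum of counts and ran from -0.24 to 0.35 without single libraries. AZU1 in untreated USP18-/- cells became 0.015 with the TMM factors of the windows.

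Scaling set the balance of all calls. By sum of counts the median of all windows moved to -0.16, -0.27, -0.14 and -0.13 for untreated USP18 loss, USP18 loss under IFN, IFN in USP18-/- cells and the difference, and the lower share of calls from 65.6%, 54.3%, 37.5% and 35.0% to 77.3%, 73.4%, 51.4% and 50.6%. The TMM factors of the windows moved the median of all genes to 0.16 and 0.20 for USP18 loss without and with IFN, where the lower share of gene calls went from 73.1% and 58.1% to 52.9% and 37.0%, and left 2, 6, 4 and 4 member genes called lower for the same 4 comparisons. LYZ in untreated cells was then at -0.84, and under IFN AZU1 was at -0.97, S100A8 at -0.99 and S100A12 at -0.87. The IFN effect in USP18-/- cells was then -0.99 for AZU1 and -0.96 for ELANE, and the AZU1 difference of IFN effects was -0.99. The replicate block called 0, 17, 28, 14 and 9 windows and 0, 3, 10, 6 and 5 genes for the 5 comparisons, and changed no count. Windows with few counts had SE up to 0.59 in comparisons of genotype, at S100A8 -63, so smaller shifts there were not detectable at this depth.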
